A study of Mus musculus with 14 samples.

Results

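The 10 genes described here mark the non-blood cells of bone marrow and were measured on whole-transcriptome arrays of sorted marrow cells. They comprise 6 stromal genes (Col1a1, Col1a2, Col3a1, Pdgfra, Pdgfrb and Lepr) and 4 endothelial genes (Cdh5, Kdr, Tek and Emcn), 10 of the 22180 genes that could be named on the array. They were chosen by symbol, with the brightest probe set taken where a gene had more than 1. This applied to Col1a2, whose other probe set lay between 1.60 and 2.25. The sorted cells carried Sca1 and lacked Kit (Sca1+cKit- BMCs). All mice were female and of the nude strain NCR-NU. The groups were 3 old tumor-bearing, 5 old cancer-free, 3 young tumor-bearing and 3 young cancer-free mice, with 1 array each. Cancer-free mice carried a Matrigel control and tumors were matched in size. The sources used here give neither the kind of tumor nor the ages in weeks. The labels name no sort on the leukocyte marker CD45 and no removal of stromal or vessel cells.

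Bone marrow is held together by mesenchymal stromal cells, which secrete fibrillar collagen and maintain blood stem cells, and by endothelial cells, which line its arterioles and sinusoids. In mouse marrow, Sca1 is found on many lymphoid cells, on stem cells, on a small population of Pdgfra-positive mesenchymal cells and on arteriolar endothelium. A Sca1-positive, Kit-negative sort can therefore hold stromal and endothelial cells among many more leukocytes. In such a bulk sample, fewer cells of a type and less RNA per cell cannot be told apart.

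The stromal and endothelial genes were at or near background in these cells. Levels are log2 RMA values, 1 unit being a factor of 2 in signal. They depend on the probes of each gene, so levels are set mainly against background, and comparisons of level between genes are rough. Background was taken from the 1390 olfactory and vomeronasal receptor genes on the array, sensory receptors that most marrow cells are not known to use. Their 95th percentile lay between 4.02 and 4.32 on the 14 arrays. None (0) of the 10 genes exceeded that percentile on all 14 arrays. Col1a1 did so on 13 arrays, Cdh5 on 7, Pdgfrb on 2 and Col1a2 and Col3a1 on 1 each. Kdr, Pdgfra, Lepr, Tek and Emcn did so on 0. A level under this line is not detectable here, which is not the same as absent.

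The leukocyte genes show the contrast in scale. All 6 pan-leukocyte genes exceeded the receptor line on all 14 arrays, with mean levels between 8.37 and 10.82. Ptprc, which encodes CD45, averaged 10.57 ± 0.04 in old tumor-bearing, 10.99 ± 0.29 in old cancer-free, 10.76 ± 0.09 in young tumor-bearing and 10.84 ± 0.11 in young cancer-free mice (SD, n = 3, 5, 3 and 3). Female cells lack the Y-linked genes, of which Uty, Kdm5d and Eif2s3y lay between 1.67 and 2.73. Lepr, at 1.38 to 2.14, was above the brightest of them on 0 arrays. Emcn was above it on 9 arrays, Tek on 12 and Pdgfra on 13. Col1a1, Col1a2, Col3a1, Pdgfrb, Cdh5 and Kdr were above it on all 14. Kit itself was above the receptor line on all 14 arrays, at 5.25 to 7.03, although the sort was on absence of the Kit protein. Ly6a, which encodes Sca1, was not analysed here.

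**Figure D1:**
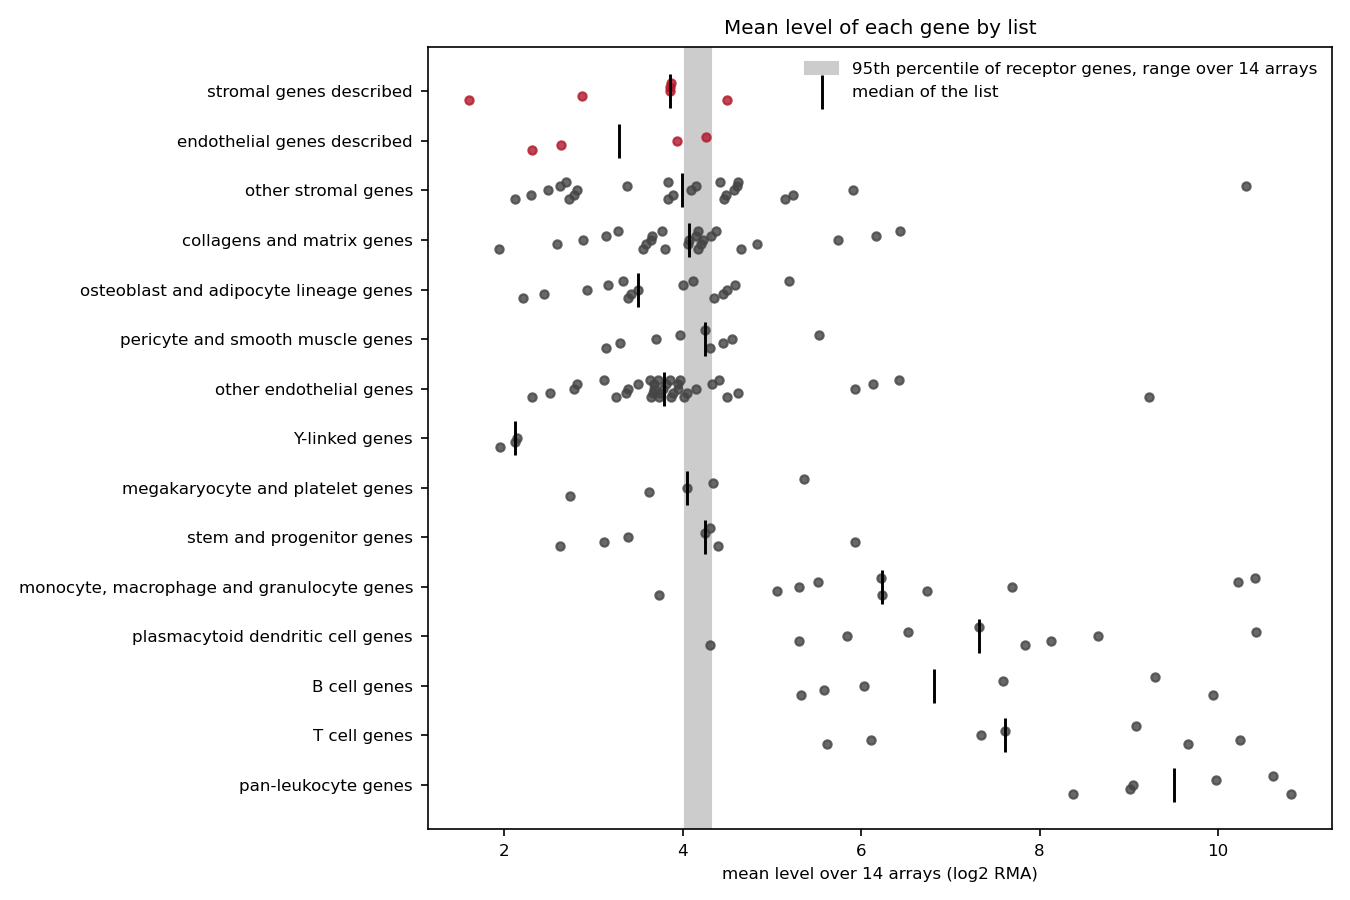
Mean level over 14 arrays (log2 RMA, horizontal axis) of each gene, 1 point per gene, by list; black ticks are list medians, and the grey band (4.02 to 4.32) spans the 95th percentiles of the 1390 olfactory and vomeronasal receptor genes on the arrays. The 10 genes described (red) lie between 1.60 and 4.49, only Col1a1 to the right of the band, while the 6 pan-leukocyte genes lie between 8.37 and 10.82.

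Col1a1, Col1a2 and Col3a1 encode chains of the fibrillar collagens types I and III, the bulk of the fibrous matrix made by fibroblasts and osteoblasts. Col1a1 was at 4.74, 4.29 and 4.83 in the 3 old tumor-bearing mice, against 4.05, 4.38, 4.34, 4.47 and 4.36 in the 5 old cancer-free mice. It was at 4.55, 4.62 and 4.46 in young tumor-bearing mice and at 4.77, 4.45 and 4.56 in young cancer-free mice. All groups overlapped, and only old cancer-free replicate 1 was under its own array's receptor line. The mean of Col1a1, 4.49, was higher than that of 96.7% of the receptor genes and of 57.2% of all genes.

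Its partner chain Col1a2 was at 4.20, 3.54 and 4.03 in old tumor-bearing mice, and at 4.02, 4.03, 3.82, 4.11 and 3.96 in old cancer-free mice. In young mice it was at 3.87, 3.76 and 3.63 with a tumor and at 3.87, 3.51 and 3.65 without. Of the 5 old cancer-free arrays, 4 lay above every young array, and old tumor-bearing replicate 2 lay low in the young range. Col3a1 was at 3.72, 3.56 and 4.45 in old tumor-bearing mice, against 3.71, 3.93, 3.92, 3.97 and 3.60 in old cancer-free mice. It was at 4.02, 4.05 and 3.85 in young tumor-bearing mice, against 3.72, 3.65 and 3.85 in young cancer-free mice. Its highest value, in old tumor-bearing replicate 3, was the only one over the receptor line, and the other 2 arrays of that group were among the lower ones.

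Pdgfra and Pdgfrb are the receptor tyrosine kinases for platelet-derived growth factors. In marrow the first marks mesenchymal progenitors, and the second also marks pericytes, the cells that wrap small vessels. Pdgfrb was at 3.68, 4.01 and 4.08 in old tumor-bearing mice, and at 4.01, 3.50, 3.54, 3.65 and 3.78 in old cancer-free mice. It was at 3.88, 4.31 and 4.42 in young tumor-bearing mice, against 3.80, 3.88 and 3.53 in young cancer-free mice. The order of the group means was young tumor-bearing (4.20 ± 0.29), old tumor-bearing (3.93 ± 0.21), young cancer-free (3.74 ± 0.19) and old cancer-free (3.70 ± 0.21; SD, n = 3, 3, 3 and 5), and each neighboring pair overlapped. The 2 arrays over the receptor line were young tumor-bearing replicates 2 and 3.

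Pdgfra lay under the line on every array. It was at 3.80, 2.79 and 2.93 in young tumor-bearing mice, against 2.69, 2.28 and 2.96 in young cancer-free mice, and young tumor-bearing replicate 1 alone sat apart from the others. In old mice it ranged from 2.65 to 3.06 with a tumor and from 2.50 to 3.05 without. Lepr, the leptin receptor that marks the perisinusoidal stromal cells, had its highest value, 2.14, on that same array. Its other values in young tumor-bearing mice were 1.50 and 1.74, against 1.49 to 1.65 in young cancer-free mice. Across all genes, this array had the lowest mean correlation with the other 13 arrays (0.908, the others 0.912 to 0.941), and the part this played in both values was not tested.

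Cdh5, the VE-cadherin of endothelial junctions, varied most from array to array among the 10 genes. It was at 4.75, 3.88 and 4.66 in old tumor-bearing mice, against 5.27, 3.50, 4.25, 3.67 and 3.91 in old cancer-free mice. It was at 3.32, 4.85 and 4.04 in young tumor-bearing mice, against 4.73, 4.53 and 4.31 in young cancer-free mice. The highest and the lowest of the 14 values thus fell in old cancer-free and young tumor-bearing mice, and all groups overlapped. Its within-group SD, 0.58, was larger than any difference between group means, and larger than that of 90.8% of all genes, where the median gene had 0.29. By Dixon's criterion no value among the 5 old cancer-free arrays stood out for any of the 10 genes.

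Kdr encodes the main signaling receptor for vascular endothelial growth factor, and it was the steadiest of the 10. Its values lay between 3.76 and 4.14, with a within-group SD of 0.12, smaller than that of all but 1.43% of genes. The group means were 4.01 ± 0.076 in old tumor-bearing, 3.89 ± 0.15 in old cancer-free, 4.02 ± 0.14 in young tumor-bearing and 3.83 ± 0.080 in young cancer-free mice (SD, n = 3, 5, 3 and 3). Neighbors in the order of these means overlapped.

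Tek, the receptor for angiopoietins (also called Tie2), was at 2.97, 2.77 and 3.07 in old tumor-bearing mice, against 2.72, 2.56, 2.75, 2.50 and 2.01 in old cancer-free mice. It was at 2.75, 2.59 and 2.62 in young tumor-bearing mice, against 2.31, 2.67 and 2.59 in young cancer-free mice. The old tumor-bearing arrays lay above all others, with the gap to the next array (2.772 against 2.754) far smaller than the spread within groups. All of these values were more than 1 unit under the receptor line. Emcn, the sialomucin endomucin of venous and capillary endothelium, ranged from 2.15 to 2.44 in old tumor-bearing, from 2.05 to 2.61 in old cancer-free, from 2.10 to 2.70 in young tumor-bearing and from 2.15 to 2.34 in young cancer-free mice. Its groups overlapped throughout.

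**Figure D2:**
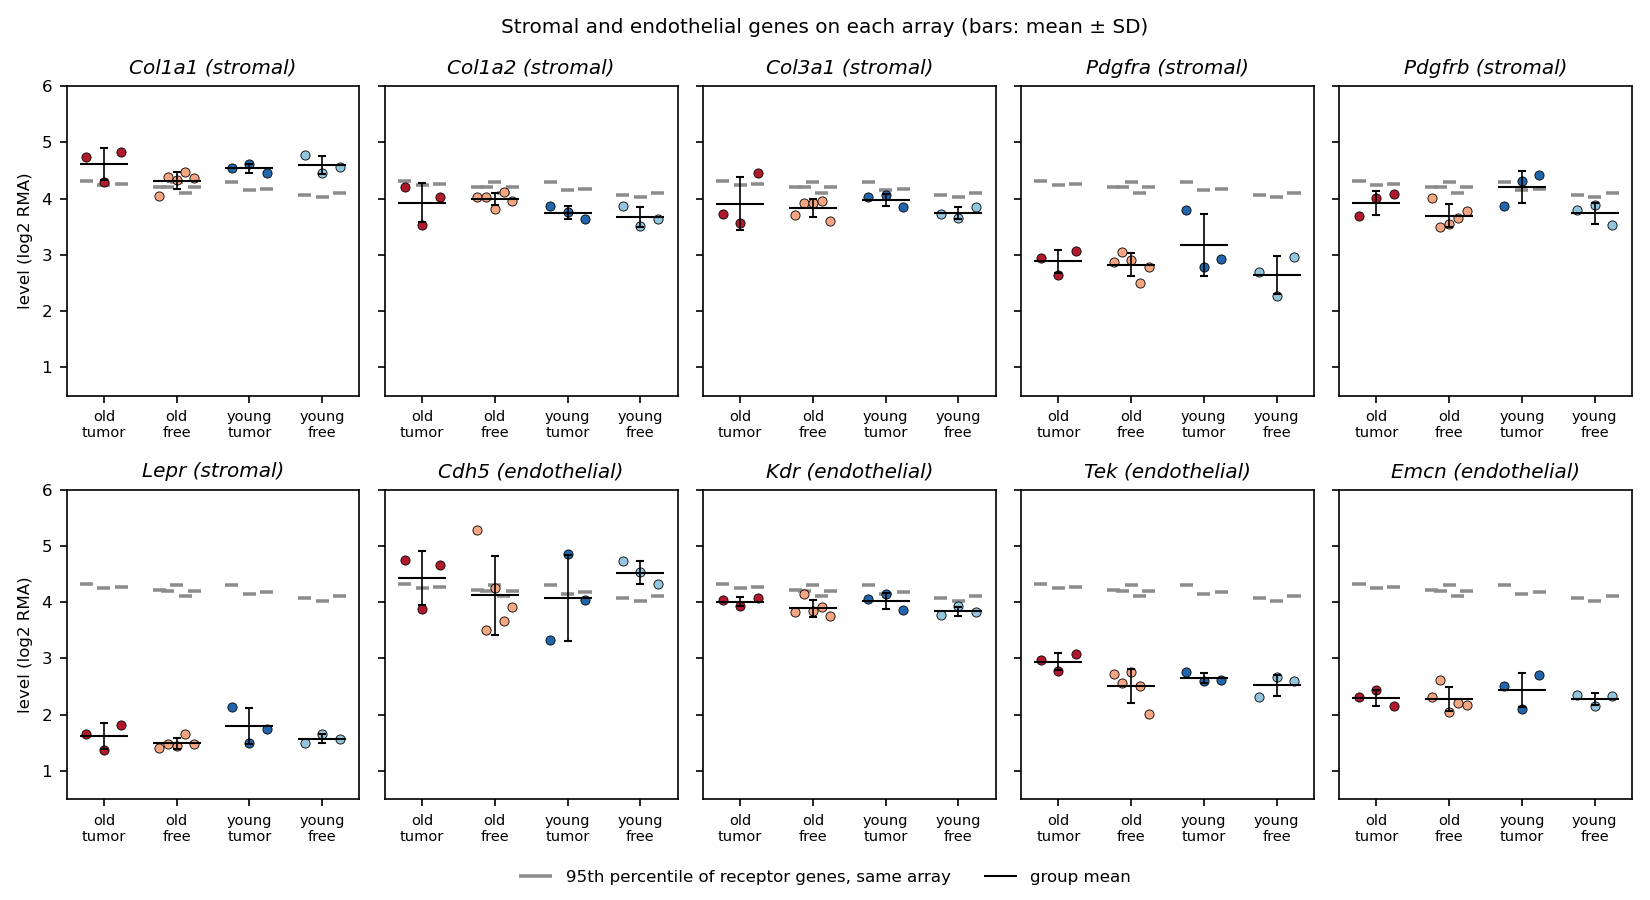
Level (log2 RMA, vertical axis) of the 10 stromal and endothelial genes on each of 14 arrays, in old tumor-bearing, old cancer-free, young tumor-bearing and young cancer-free mice (n = 3, 5, 3 and 3); points are arrays, black lines with bars are group means ± SD, and grey dashes are the 95th percentile of the olfactory and vomeronasal receptor genes on the same array. Col1a1 lies over its grey dash on 13 arrays, Cdh5 on 7 and Lepr, Pdgfra, Tek, Emcn and Kdr on 0.

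The series crosses host age with tumor state, and the question put to these genes was whether either moves with them. Of the 10 genes, 6 were bright enough to test, with 3 arrays or more over the median of all values, 3.88. They were Col1a1, Col1a2, Col3a1, Pdgfrb, Cdh5 and Kdr. Pdgfra, Lepr, Tek and Emcn were above it on 0 arrays and are given as values. The fit was made on all 13805 genes that passed, in limma, and a gene was called at a Benjamini-Hochberg adjusted p under 0.05. Of the 6 genes, 0 were called in any of the 7 contrasts fitted. Across all genes tested, limma called 0% for tumor in old mice, 0% for tumor in young mice, 0% for age in tumor-bearing mice and 0% for age in cancer-free mice. It also called 0% for tumor averaged over ages, 0% for the difference between the tumor effects in old and young mice, and 0.0869% (12 genes) for age averaged over tumor states. With so few calls among all genes, a count of 0 is not a result about these 6.

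In old mice, tumor-bearing minus cancer-free, Col1a1 differed by 0.30 ± 0.17 (SE), with a 95% interval of -0.06 to 0.66 and adjusted p = 0.581 in limma. Cdh5 was at 0.31 ± 0.40, Pdgfrb at 0.23 ± 0.18 and Kdr at 0.12 ± 0.14, while Col3a1 was at 0.08 ± 0.19 and Col1a2 at -0.07 ± 0.17. At unadjusted p under 0.05 there were 0 of these 6 genes and 1348 genes in all (9.76%). Among the 4 genes not tested, Tek differed by 0.43, Lepr by 0.13, Pdgfra by 0.06 and Emcn by 0.03. Tek was 1 of 10 genes whose groups did not overlap, where 6.16% of all genes and 4.89% of the receptor genes had no overlap. Without the filter on dim genes, Tek had adjusted p = 0.477 in limma.

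In young mice, tumor-bearing minus cancer-free, Pdgfrb differed by 0.46 ± 0.21 (95% interval 0.02 to 0.91, adjusted p = 0.886 in limma). Its unadjusted p in limma was 0.0415. It was 1 of 745 genes under 0.05 in all (5.40%), and the other 5 were not among them. Averaged over both ages, Pdgfrb differed by 0.35 ± 0.14 (adjusted p = 0.426 in limma, unadjusted p = 0.0252), with 1414 genes in all (10.2%) at unadjusted p under 0.05. Of the others in young mice, Col3a1 was at 0.24 ± 0.22, Kdr at 0.19 ± 0.16, Col1a2 at 0.08 ± 0.19, Col1a1 at -0.05 ± 0.19 and Cdh5 at -0.45 ± 0.44. Pdgfra differed by 0.53, Lepr by 0.22, Emcn by 0.16 and Tek by 0.13, without a test. Groups did not overlap for 0 of the 10 genes, against 13.1% of all genes. The difference between the tumor effects in old and young mice was 0.76 ± 0.59 for Cdh5 and 0.35 ± 0.25 for Col1a1, both with adjusted p = 0.976 in limma. For that difference 610 genes (4.42%) had unadjusted p under 0.05, and 0 of the 6 did.

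With a tumor, 9 of the 10 genes had a positive difference in old mice and 8 of 10 in young mice, with medians of 0.12 and 0.17. The receptor genes moved the same way. Their median difference was 0.10 in old and 0.09 in young mice, positive for 70.6% and 67.3% of the 1390. Their 95th percentile averaged 4.28 ± 0.038 in old tumor-bearing, 4.20 ± 0.070 in old cancer-free, 4.21 ± 0.083 in young tumor-bearing and 4.06 ± 0.042 in young cancer-free mice (SD, n = 3, 5, 3 and 3). Over all 22180 genes the difference was positive for 59.3% in old and 55.7% in young mice. The pan-leukocyte genes had the opposite sign, with 6 of 6 negative in old mice (median -0.35) and 6 of 6 negative in young mice (median -0.21), and 0 of them called. The T cell genes were negative for 4 of 7 in old mice (median -0.03) and for 7 of 7 in young mice (median -0.96), again with 0 called. Not all leukocyte lists were negative. The plasmacytoid dendritic cell genes were positive for 5 of 9 in old mice (median 0.13) and 6 of 9 in young mice (median 0.09). The B cell genes were positive for 3 of 6 (median -0.03) and 4 of 6 (median 0.02). The myeloid genes were positive for 3 of 10 (median -0.07) and 4 of 10 (median -0.16). In these lists too, 0 were called. The part of these shifts in the values of the stromal and endothelial genes was not tested. Once each array was shifted by its own receptor percentile, a setting chosen after seeing the data, Pdgfrb in young mice differed by 0.32.

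Between old and young tumor-bearing mice, the differences ran from -0.28 ± 0.21 for Pdgfrb to 0.36 ± 0.44 for Cdh5. Col1a2 was at 0.17 ± 0.19, Col1a1 at 0.08 ± 0.19, Kdr at -0.01 ± 0.16 and Col3a1 at -0.07 ± 0.22. Adjusted p in limma lay between 0.693 and 0.989, with 0 of these 6 genes and 1394 genes in all (10.1%) at unadjusted p under 0.05. Of those not tested, Tek differed by 0.29, Emcn by -0.13, Lepr by -0.18 and Pdgfra by -0.29. Tek again was the 1 gene without overlap, against 12.1% of all genes. Both of its separations use the same 3 old tumor-bearing arrays, so they are not separate results.

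Between old and young cancer-free mice, Col1a2 differed by 0.31 ± 0.17 (95% interval -0.05 to 0.68, adjusted p = 0.698 in limma) and Col1a1 by -0.27 ± 0.17 (-0.63 to 0.08, adjusted p = 0.718 in limma). The 2 chains of type I collagen thus had opposite signs here, and neither passed. Cdh5 was at -0.40 ± 0.40, Pdgfrb at -0.04 ± 0.18, Col3a1 at 0.09 ± 0.19 and Kdr at 0.06 ± 0.14. Pdgfra differed by 0.18, Lepr by -0.08, and Tek and Emcn by -0.01 each, without a test. At unadjusted p under 0.05 there were 0 of the 6 and 1057 genes in all (7.66%). Groups did not overlap for 0 of the 10, against 6.58% of all genes. Averaged over tumor states, Col1a2 had the smallest p of the 6 for age, with 0.24 ± 0.13 (adjusted p = 0.436 in limma), where 1851 genes (13.4%) had unadjusted p under 0.05.

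The intervals bound the differences that these arrays leave possible. For the 5 genes other than Cdh5, the 95% intervals in the 4 comparisons between single groups reached no further than -0.72 and 0.91. For Cdh5 they reached from -1.40 to 1.31. These bounds are on the log2 RMA scale, and near background that scale understates changes in transcript number.

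**Figure D3:**
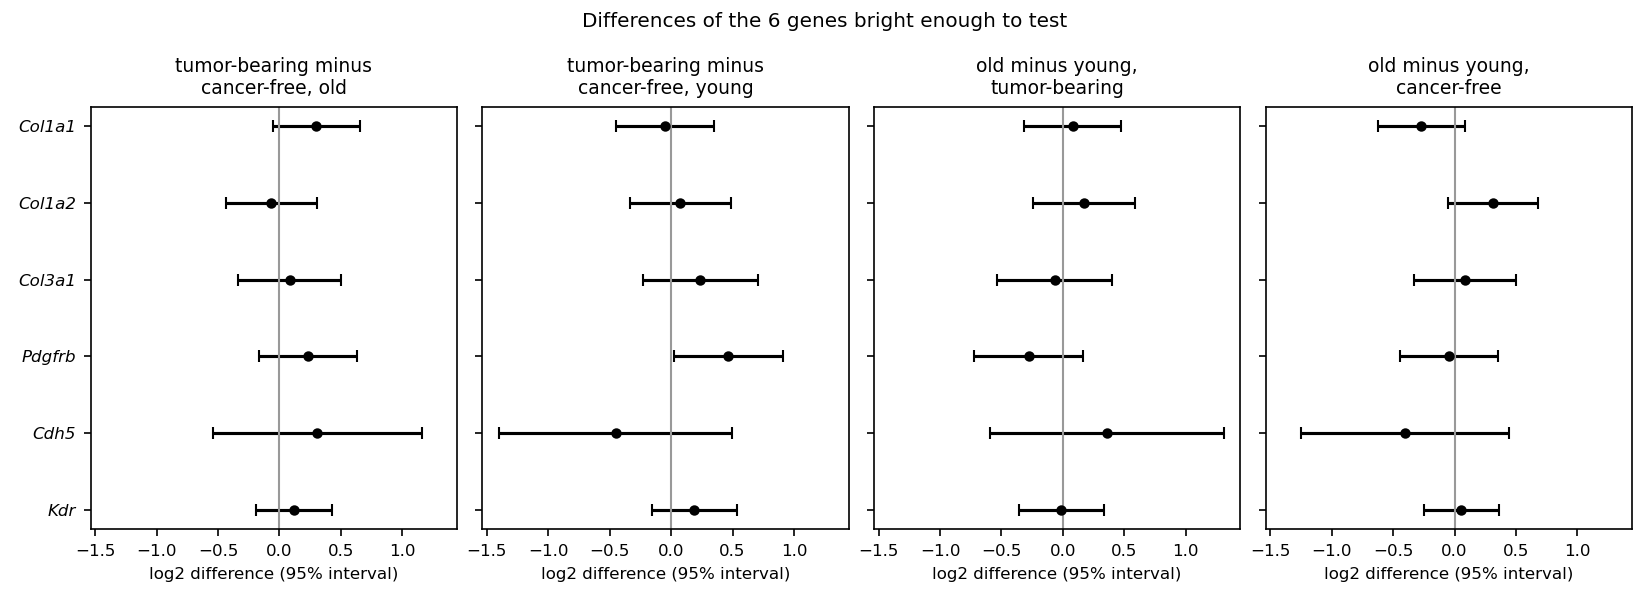
Log2 difference with its 95% interval from limma (horizontal axis) for the 6 genes bright enough to test, in 4 comparisons between single groups of 3 or 5 arrays. All intervals include 0 except that of Pdgfrb in young mice (0.02 to 0.91), whose adjusted p is 0.886, and Cdh5 has the widest.

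From array to array, 0 pairs of these genes passed a test of correlation. Over the 14 arrays, 15 pairs of the 6 tested genes were correlated. Pearson's r was positive for 12 pairs and negative for 3, from -0.34 to 0.56, and 0 pairs had an adjusted p under 0.05 by permutation, two-sided, for r or for Spearman's rho. The highest pair was Col3a1 and Kdr (r = 0.56, permutation p = 0.0315, adjusted p = 0.472; rho = 0.60, permutation p = 0.0274, adjusted p = 0.37). It was 0.60 without the 2 arrays farthest from the median of Col3a1. Col1a1 and Col1a2, whose products assemble into the same fibril, had r = 0.17 (permutation p = 0.558, adjusted p = 0.815) and rho = 0.28 (permutation p = 0.324, adjusted p = 0.611), and r = 0.32 without the 2 farthest arrays. After subtracting each group's mean their r was 0.73, a value given without a test. No batch is named in the labels.

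Among 12429 tested genes with regular names, those with the profile most like each of the 6 over the 14 arrays were not stromal or endothelial genes of the lists used here. Col1a1 was closest to Rdx (r = 0.82, rho = 0.85), Ubqln2 (r = 0.82, rho = 0.78) and Cxxc5 (r = 0.81, rho = 0.83). Col1a2 was closest to Gast, Myadml2 and Scrt2 (r = 0.83, 0.82 and 0.81), and Col3a1 to Hsd17b4, Jph4 and B4galnt3 (r = 0.82, 0.82 and 0.81). Pdgfrb was closest to Tfdp2, Clpb and Zc3h10 (r = 0.84, 0.82 and 0.82). Cdh5 was closest to Nrtn, Cenpm and Prkar1a (r = 0.85, 0.84 and 0.83), and Kdr to Klhl29, Foxi1 and Il5ra (r = 0.87, 0.80 and 0.79). As the highest of many, these values are a description of 14 arrays that share their array scaling.

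The wider list of stromal genes held both detected and undetected genes. Of 24 other stromal genes, 6 were above the receptor line on all 14 arrays and 10 on none. The 6 were Thy1 (mean 10.31), a surface protein also of T cells, Bgn (5.91), Nt5e (5.24), the ectoenzyme CD73 also of lymphocytes, Igfbp4 (5.14), Cspg4 (4.62) and Cxcl12 (4.42). Cxcl12, the chemokine of stromal niche cells, ranged from 4.21 to 4.87 over all arrays, just above the line. Kitl, Angpt1, Vcam1, Dcn and Lum, which marrow stromal cells make in quantity, were above it on 0 arrays, with means of 2.49, 2.30, 2.62, 2.81 and 2.12.

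Of 25 other collagen and matrix genes on the array, 4 were above the line on all arrays and 8 on none. Those 4 were the laminin chain Lamc1 (mean 6.44), the collagen-modifying enzymes P4ha1 (5.74) and Plod1 (4.83), and Col6a1 (4.66). Postn, Lox and Col12a1 were above it on 0 arrays. Of 15 osteoblast, cartilage and adipocyte genes 1 was (Plin1, 4.50), and of 9 pericyte and smooth muscle genes 1 was (Acta2, 5.52). Of 16 ligands and partners of the receptors, Vegfa (5.15), Vegfb (7.03), Pdgfa (4.79) and Ctnnb1 (6.88) were above the line on all arrays, while Pdgfd, Lep and Angpt2 were above it on 0.

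Of 36 other endothelial genes, 5 were above the line on all arrays and 18 on none. The 5 were Fli1 (mean 9.23), an Ets factor of blood and vessels, S1pr1 (6.43), the receptor for lymphocyte egress, Icam2 (6.13), Pecam1 (5.93) and Notch4 (4.62). All but Notch4 are known in leukocytes as well. Egfl7 (4.50), Ecscr (4.41) and Ramp2 (4.33), which are also known from vessels, were above it on 12 arrays each. Plvap, Robo4, Esam, Stab2 and Clec14a were among those above it on 0 arrays. Vwf was above it on 1 array and Cd34 on 4. Pf4, a platelet gene, was above it on 0 arrays. Of the other megakaryocyte and platelet genes, Ppbp was above it on 0 arrays, Itga2b on 3, Gp9 on 10 and Itgb3 on 14. Ebf1, shared by B cells and stroma, averaged 5.58 and was above it on all 14.

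In the wider stromal, matrix and endothelial lists, 15, 17 and 25 genes were tested. Pecam1 alone was called, and in 1 contrast. It was at 5.50 ± 0.20 in old tumor-bearing, 5.57 ± 0.32 in old cancer-free, 6.51 ± 0.30 in young tumor-bearing and 6.40 ± 0.14 in young cancer-free mice (SD, n = 3, 5, 3 and 3). Averaged over tumor states it fell by 0.92 ± 0.15 in old mice (adjusted p = 0.0429 in limma). Old arrays lay under young ones in tumor-bearing and in cancer-free mice. Of all genes, 12.1% and 6.58% had no overlap in these comparisons. As Pecam1 was named for its p, this is not separate support. The call was lost in 15 of 23 alternatives, with adjusted p between 0.0134 and 0.156 and the difference between -1.02 and -0.85. Pecam1 is also a surface protein of myeloid and plasmacytoid dendritic cells. The plasmacytoid dendritic cell list, all 9 genes of it tested, had a mean level of 6.38 to 6.79 on old tumor-bearing and 6.05 to 7.37 on old cancer-free arrays, against 7.52 to 8.07 on young tumor-bearing and 7.24 to 8.11 on young cancer-free arrays. Among the 10 myeloid genes tested, Itgam, an integrin chain, also fell on that average, by 0.96 ± 0.15 in old mice (adjusted p = 0.0387 in limma; lost in 12 of 23 alternatives, adjusted p between 0.00959 and 0.125). The part of these cells in the Pecam1 difference was not tested. In the other lists, 0 genes were called in any contrast. For age on average, Cdh5 was at -0.02 ± 0.30 and Kdr at 0.02 ± 0.11. Cdh5 was above the receptor line on 7 arrays and Kdr on 0. Genes so near background could not show a fall, so their values do not bear on the Pecam1 difference.

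The other genes of these lists with the smallest p did not pass. For tumor in old mice they were Sox7 (0.70 ± 0.22), an endothelial transcription factor, Eln (0.50 ± 0.17), which encodes elastin, and the pericyte proteoglycan Cspg4 (0.44 ± 0.16), with adjusted p from 0.357 to 0.429 in limma. Sox7 and Eln were under the receptor line on most arrays. The same 3 led for tumor averaged over ages (0.53 ± 0.16, 0.32 ± 0.13 and 0.32 ± 0.12). For tumor in young mice they were Nos3 (0.46 ± 0.19), above the receptor line on 0 arrays, Erg (0.79 ± 0.33) and Serpinf1 (0.58 ± 0.25), each with adjusted p = 0.886 in limma. For age they were Pecam1, the endothelial regulator Ecscr (0.55 ± 0.18 in tumor-bearing and 0.43 ± 0.16 in cancer-free mice), Fn1, the fibronectin gene (-2.45 ± 0.77 in tumor-bearing mice), and Nos3 (0.39 ± 0.17 in cancer-free mice). Fn1 averaged 5.24 in old and 7.68 in young tumor-bearing mice (adjusted p = 0.315 in limma), and macrophages are also known to make it. For the difference of the tumor effects by age they were S1pr1 (1.38 ± 0.58), Serpinf1 (-0.60 ± 0.34) and Nos3 (-0.43 ± 0.25), each with adjusted p = 0.976 in limma. All of the Nos3 differences use the same 3 young cancer-free arrays (mean 3.44), so they are not separate results. The Serpinf1 differences likewise share the young arrays. In each of the 7 contrasts 0 of the 15 stromal and 0 of the 17 matrix genes were called.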

How the data were processed

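The log2 values of 14 arrays of sorted marrow cells were used as deposited. The submitters' processing notes name RMA, oligo (1.32.0) and R (3.2.0) for them. Joint normalization, filters and scan dates are not given in the sources used here. RNA was amplified from a very small input, per the labels' protocols. Precision is limited by how few arrays each group has. Values ran from 0.29 to 13.8, with array medians of 3.81 to 3.93. Of 41345 probe sets, 23521 carried 1 gene symbol, 1814 several (not named) and 16010 none, by GEO's platform annotation updated through Entrez identifiers. The brightest probe set was kept for 1082 genes with several. Genes above the table median on at least 3 arrays were fitted across all genes with limma 3.58.1 under R 4.3.3 (4 group means, 7 contrasts, two-sided, Benjamini-Hochberg within each contrast). The labels call the samples biological replicates and name no pairing.

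The genes, lists and tests were chosen with earlier results of these data known. Named genes were the 10, Ptprc, Pecam1, Cxcl12, Vwf, Kit, Pf4, Cd34 and Ebf1, called genes of the wider lists, the 3 smallest p per contrast in the stromal, matrix and endothelial lists, and the 3 most similar profiles per gene. Other list genes were named after their values were seen. The fit was run on simulated data with added changes larger than any difference found for the 10 genes. It therefore does not show whether changes as small as theirs would be called. Correlations used 100000 permutations.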

Additional observations from a re-analysis of the deposited data

How the results depend on the processing

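Counts of the 10 genes called stayed at 0 in all 7 contrasts under each alternative run: no filter, a filter at the receptor line (which kept Col1a1 and Cdh5), cyclic loess, median centring, a robust variance trend, array weights, the mean of probe sets, only the groups compared (run for the 4 comparisons between single groups), the replicate block, the receptor shift added after seeing the data, and leaving out each array. Adjusted p of these genes in limma was never under 0.274 in the 4 comparisons between single groups. The same held for Pdgfrb with tumor on average, Col1a2 with age on average, and Cdh5 and Col1a1 for the difference between the tumor effects. For the other averaged values and differences of effects only the counts of genes called were kept. The number of the 10 above background on all arrays was 0 with the receptor line, 1 with the table median and 6 with the highest Y-linked gene as the line. Signs of small differences turned. For Kdr, age in cancer-free mice was -0.012 with cyclic loess, -0.011 with median centring and -0.083 with the receptor shift. That shift also gave -0.068 for Col1a2 with tumor in young mice and -0.052 for Col3a1 with age in cancer-free mice.

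Leaving out 1 array turned more signs, with ranges of -0.338 to 0.107 for Col3a1, -0.0898 to 0.048 for Kdr, -0.025 to 0.242 for Col1a1, -0.017 to 0.748 for Cdh5 (age in tumor-bearing mice); -0.205 to 0.129 for Col1a2, -0.186 to 0.259 for Col3a1 (tumor in old mice); -0.15 to 0.0281 for Pdgfrb, -0.0058 to 0.10 for Kdr (age in cancer-free mice); -0.12 to 0.0365 for Col1a1, -0.0053 to 0.172 for Col1a2 (tumor in young mice).

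Pdgfrb with tumor in young mice lay between 0.32 and 0.63 over its 23 alternatives (adjusted p 0.682 to 0.999 in limma). The count of all genes called for age on average, 12, was 160 with the receptor shift, 80 with median centring, 57 with array weights, 0 with the replicate block, and 0 without young cancer-free replicate 3 to 74 without old tumor-bearing replicate 3. In tumor-bearing mice age gave 0, but 6, 9 and 7 with cyclic loess, median centring and mean probe sets, 7 with the receptor shift and up to 2 without 1 array. Tumor in old mice gave 0, but leaving out old tumor-bearing replicate 1 gave 4, and leaving out replicate 3 or 5 of the old cancer-free mice gave 3 or 1. Fn1 passed for age on average without old tumor-bearing replicate 3 (-2.39, adjusted p = 0.0347; not passing otherwise). Equal replicate numbers did not pair the arrays: deviations from group means of same-numbered arrays had a median correlation of 0.0073 over 18 pairs (-0.08 to 0.09), and 4 of 14 arrays were closest to their own number. The replicate block changed no call of the 10 genes. It ended that of Pecam1 (adjusted p = 0.0963). Signal near background limits every statement on these genes.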

Other observations

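Among the wider lists, chosen after their values were seen, Nid1, which encodes the basement membrane protein nidogen, reached 8.51 on old cancer-free replicate 2 and 6.72 on the next highest array, with a lowest value of 3.15. It differed by 1.57 ± 0.91 between old and young cancer-free mice (adjusted p = 0.701 in limma). Vegfa was highest on the same array, at 6.22 against 5.28 on the next. Alpl, the alkaline phosphatase of osteoblasts and of some lymphoid and myeloid cells, ranged from 3.99 to 7.42. Its highest value was on old tumor-bearing replicate 3, where Col1a1, Col3a1 and Tek also had their highest values. That array had a low mean correlation with the other arrays (0.912), and the part this played in these values was not tested. Pparg, the adipocyte regulator, stood at 4.73 on young cancer-free replicate 3 and at 3.60 or lower on the others.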
